A study of Homo sapiens with 5 samples.

Results

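This comparison set the 2 libraries of cells given miR-17 against the 2 libraries of cells given let-7a, 4 of the 5 RNA libraries of the study. All came from HCT116, a human colorectal carcinoma line, in a derivative described as lacking Dicer, the ribonuclease that cuts mature microRNAs out of their precursors. The miR-17 side held 1 library of cells transfected with native miR-17 (miR17-native) and 1 with a methylated form (miR17-13A). The let-7a side held 1 library with native let-7a (let7a-native) and 1 with a methylated form (let7a-19A). The Dicer knockout was shared by all 4, and the labels do not state which methyl group was used, the dose, the time after transfection or the number of clones behind the line. The negative-control library entered the filter on low values alone. The difference of a gene is the mean log2(TPM + 1) of the miR-17 libraries minus that of the let-7a libraries, so a positive value means a higher level with miR-17. The words fell and rose name the sign of this difference alone. Where members of a list are counted as falling or rising, the count is of genes called lower or higher by limma, described below. A loss with miR-17 and a gain with let-7a give the same difference and cannot be told apart here. TPM is a share of the library corrected for transcript length. A total of 14177 of 57773 gene identifiers had a mean of at least 1 TPM over the 5 libraries and were compared.

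MicroRNAs are short RNAs that guide Argonaute proteins to messenger RNAs, mainly through pairing of the microRNA's seed with sites in the 3′ untranslated region (3′ UTR), and a paired mRNA is then translated less and decays sooner. The miR-17 family, made from clusters that MYC activates, is known as a growth-promoting family whose targets include the cell cycle inhibitor p21. The let-7 family is known as a marker of differentiated cells, with targets such as the HMGA2 chromatin protein, RAS genes and the IGF2BP RNA-binding proteins. Cells without Dicer make few mature microRNAs of their own.

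The seed of each microRNA decides which sites it can pair with, so both mature sequences are shown, from RefSeq on GRCh38.p14, with the seed (bases 2 to 8) in capitals. Human miR-17-5p is encoded at chr13:91350618-91350640 on the plus strand, and let-7a-5p at 3 loci, on chromosomes 9, 11 and 22. The sequences of the transfected oligonucleotides are not given in the labels.

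miR-17-5p: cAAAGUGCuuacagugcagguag
let-7a-5p: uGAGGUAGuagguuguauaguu

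The label number 13 falls on an A of miR-17-5p and the label number 19 on an A of let-7a-5p, counted from the 5′ end. If the label numbers are positions of the methyl group, which the labels do not say, both lie outside the seed. The seeds differ, and miR-17 pairs with GCACTTT and let-7a with CTACCTC.

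Sites in the genes that the comparison turned on are shown with 15 bases before each site, from GENCODE 29 on GRCh38, written in the sense of the mRNA. Capitals mark the match to microRNA bases 2 to 8, with a closing capital A where an A stands opposite base 1 (an 8mer). The first 6 lie in mRNAs that were lower with miR-17, and the next 2 in mRNAs that were higher although they hold a miR-17 site.

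CYBRD1, miR-17 8mer, chr2:171555682-171555708, plus strand: caaacactcctctaaGCACTTTAcaca
ENPP5, miR-17 8mer, chr6:46160992-46161018, minus strand: agtaccttatgtattGCACTTTAaatt
F3, miR-17 8mer, chr1:94529552-94529578, minus strand: tatgctttacaatctGCACTTTAactg
LIMK1, miR-17 7mer, chr7:74122362-74122388, plus strand: tgaagctttctcagtGCACTTTgaacc
EREG, miR-17 7mer, chr4:74388441-74388467, plus strand: ttgcactctgtaattGCACTTTttaag
CDKN1A, miR-17 7mer, chr6:36686253-36686279, plus strand: agaagtaaacagatgGCACTTTgaagg
EIF4EBP2, miR-17 8mer, chr10:70422621-70422647, plus strand: taccaagtaatagagGCACTTTAgctt
SPARC, miR-17 7mer, chr5:151661644-151661670, minus strand: tcataagactacagaGCACTTTtcaaa

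The let-7a sites below lie in mRNAs that were higher with miR-17, except the last 2, which lie in mRNAs that hold sites of both microRNAs and were lower with miR-17.

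KLHDC8B, let-7a 8mer, chr3:49176403-49176429, plus strand: accttcctaccctacCTACCTCAcagg
ARG2, let-7a 8mer, chr14:67651644-67651670, plus strand: tagggataacactgtCTACCTCAcaga
IGF2BP2, let-7a 8mer, chr3:185644216-185644242, minus strand: aacacacagaagaagCTACCTCAggtg
CDKN1A, let-7a 8mer, chr6:36686728-36686754, plus strand: aagggcaccctagttCTACCTCAggca
SLC30A1, let-7a 8mer, chr1:211571678-211571704, minus strand: tttccaaagctgttcCTACCTCAccat

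Of the 14177 genes, 3840 (27.1%) had both miR-17 values above both let-7a values, and 4229 (29.8%) had both below. The ranges of the other genes overlapped or touched. At least a 2-fold difference in TPM + 1 was added for 85 genes that were higher (0.6%) and 135 that were lower (0.952%). These 220 genes included 58 with a listed 0 in at least 1 library, among them the read-through gene SYS1-DBNDD2, and a listed 0 was not read as absence. Just inside the 2-fold limit lay SERPINB8 and RAB22A, at 2.001-fold and 2.008-fold lower, and just outside it lay RRAGD, 1.997-fold lower, and RCAN2, 1.997-fold higher.

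limma, a linear model that shares the estimate of spread among genes, called 600 genes higher (4.23%) and 866 lower (6.11%) with miR-17 at a Benjamini-Hochberg adjusted p of at most 0.05. All 1466 had ranges that did not overlap. The spread in this fit is the difference between the native and the methylated form of a microRNA, each 1 library, so it includes any effect of the methyl group and is not a replicate spread; nothing in the labels says whether the 4 came from separate cultures. With the 4 library medians made equal, 1013 genes were called higher and 929 lower, so that 52.2% of the calls were higher, against 40.9% without that step. A fit with the form as a further term, which pairs the native libraries and the methylated libraries, called 407 higher and 636 lower, and its value is given beside each named gene whose call it ended. Leaving out miR17-native, miR17-13A, let7a-native or let7a-19A each left 1 library on a side and 0 calls by limma, with 942 to 1430 genes higher and 1116 to 2290 lower at an unadjusted p under 0.05.

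The 4 libraries were alike in broad terms. They listed 14173 to 14396 genes at 1 TPM or more, and the depth behind them is unknown. Mitochondrial transcripts held between 9.36% (miR17-13A) and 11.7% (let7a-19A) of the TPM. The median gene lay at 4.10 and 3.99 on the log2(TPM + 1) scale in the miR-17 libraries and at 4.10 and 4.09 in the let-7a libraries, so miR17-13A had the lowest median. Over the 14177 genes, Pearson's r was 0.9888 between the 2 miR-17 libraries and 0.9867 between the 2 let-7a libraries, against 0.9774 to 0.9798 between a miR-17 and a let-7a library; these values are across genes and are a description. DICER1 was listed at 15.9 and 12.9 TPM with miR-17 and at 11.2 and 12.5 TPM with let-7a, and with no Dicer-competent library in the comparison these values check no label. Markers of colorectal epithelium such as EPCAM, KRT8 and CDH1 were present in all 4, and VIL1 was listed at 0 in all 4.

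The plot of the native pair against the methylated pair shows both contrasts for each gene. They share no library. Across the 14177 genes the SD of the difference was 0.41 in the native pair and 0.43 in the methylated pair, against 0.30 between the 2 forms of miR-17 and 0.33 between the 2 forms of let-7a. The difference at or beyond 2-fold was found for 384 genes in the native pair and 421 in the methylated pair, against 232 between the miR-17 forms and 271 between the let-7a forms. The spread over genes was thus larger between the microRNAs than between the forms of either.

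**Figure D1:**
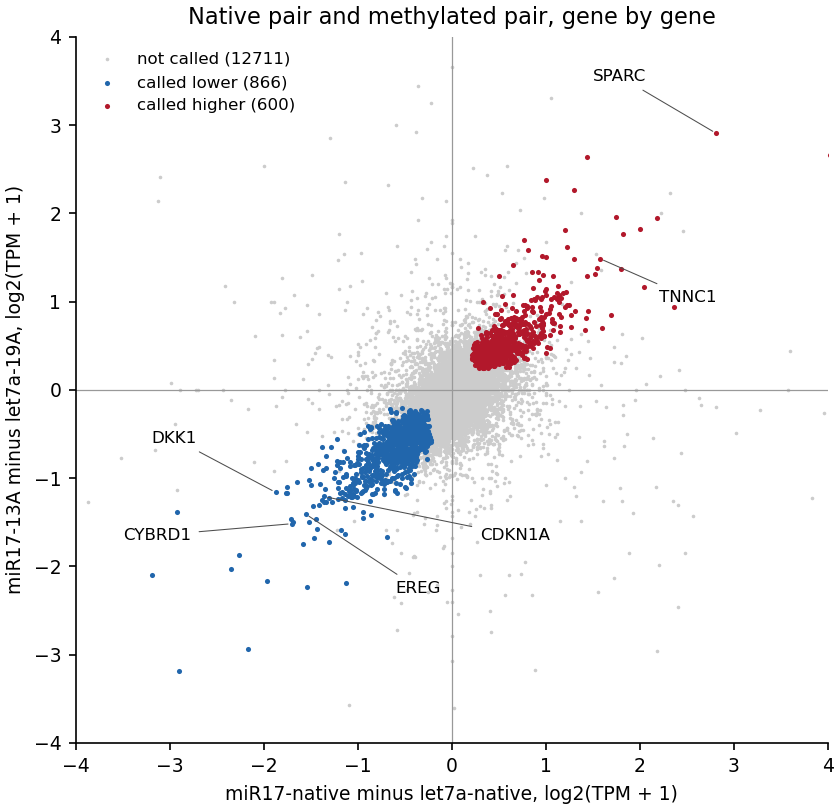
Difference of log2(TPM + 1) for each of 14177 genes, miR17-native minus let7a-native on the x axis and miR17-13A minus let7a-19A on the y axis. Blue points were called lower (866) and red points higher (600) by limma, grey points were not called, and 9 genes lie beyond the axes; the called genes lie in the lower left and upper right because the fit uses both pairs.

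Genes with a miR-17 site were lower with miR-17, and the stronger the site class the lower the median. Among 12019 genes with a searchable 3′ UTR (the longest annotated one, of at least 50 bases), the median difference was -0.009. The 664 genes with a miR-17 8mer had a median of -0.28, and 66.9% of them had both miR-17 values below both let-7a values, against 31.4% of all searched genes. The 2374 genes with a 7mer matching bases 2 to 8 and no 8mer had a median of -0.08. The 746 genes whose best site was a 7mer matching bases 2 to 7 before an A had a median of -0.05. The 2205 genes with a 6mer alone, at -0.001, lay near all searched genes, and the 6030 genes with none of these were at 0.04. The order of classes was the same in the native pair (-0.21, -0.03 and 0.00 for the 8mer and both 7mer classes) and in the methylated pair (-0.36, -0.15 and -0.09). No gene with a miR-17 8mer was at least 2-fold higher with non-overlapping ranges, and 37 were at least 2-fold lower. Among all 12019 searched genes these counts were 46 and 86, so few 8mer genes would be among the higher ones at the same rate.

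let-7a sites showed the opposite sign and a much smaller size. The 525 genes with a let-7a 8mer had a median of 0.03, with 0.10 in the native pair and -0.05 in the methylated pair, so the pairs had opposite signs. Long 3′ UTRs often hold sites of both microRNAs, and 1080 genes did so, at a median of -0.07. Among genes with no miR-17 site, the 257 with a let-7a 8mer had a median of 0.09, with 0.15 in the native pair and 0.04 in the methylated pair. Among genes with no let-7a site, the 444 with a miR-17 8mer had a median of -0.34, with -0.26 in the native pair and -0.39 in the methylated pair. The 7158 genes with a site of neither had a median of 0.02. These class medians are a description over genes, which are not replicates, and no test was run on them.

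**Figure D2:**
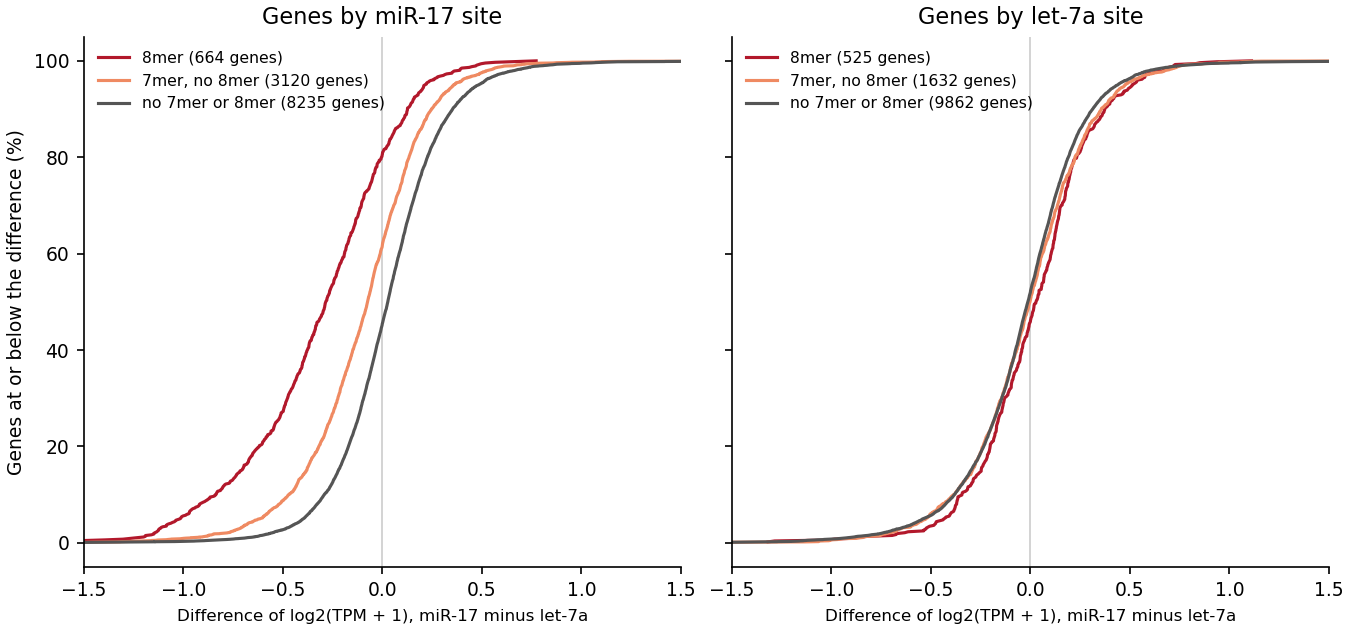
Cumulative share of genes (y axis, percent) at or below each difference of log2(TPM + 1), miR-17 minus let-7a (x axis), for genes with an 8mer, a 7mer without an 8mer, or no 7mer or 8mer. On the left, the curve of the 664 miR-17 8mer genes lies to the left of the others, with a median of -0.28; on the right, the 525 let-7a 8mer genes lie slightly to the right, with a median of 0.03.

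The site classes stood further apart in short 3′ UTRs. In the shortest tertile of 3′ UTR length, the 42 genes with a miR-17 8mer had a median difference of -0.65, against 0.04 for the 3691 genes without a miR-17 7mer or 8mer. In the middle tertile the 144 genes with an 8mer were at -0.38, and in the longest tertile the 478 genes were at -0.24. For let-7a, the 43 genes with an 8mer in the shortest tertile had a median of 0.24, the 132 in the middle tertile 0.09 and the 350 in the longest tertile -0.007. In the shortest tertile the methylated pair kept the value of the native pair for let-7a 8mer genes, at 0.25 against 0.26. In the longest tertile, genes without any let-7a 7mer or 8mer were at -0.15 in the methylated pair and at -0.006 in the native pair, so the methylated pair was lower for long 3′ UTRs with or without a site.

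**Figure D3:**
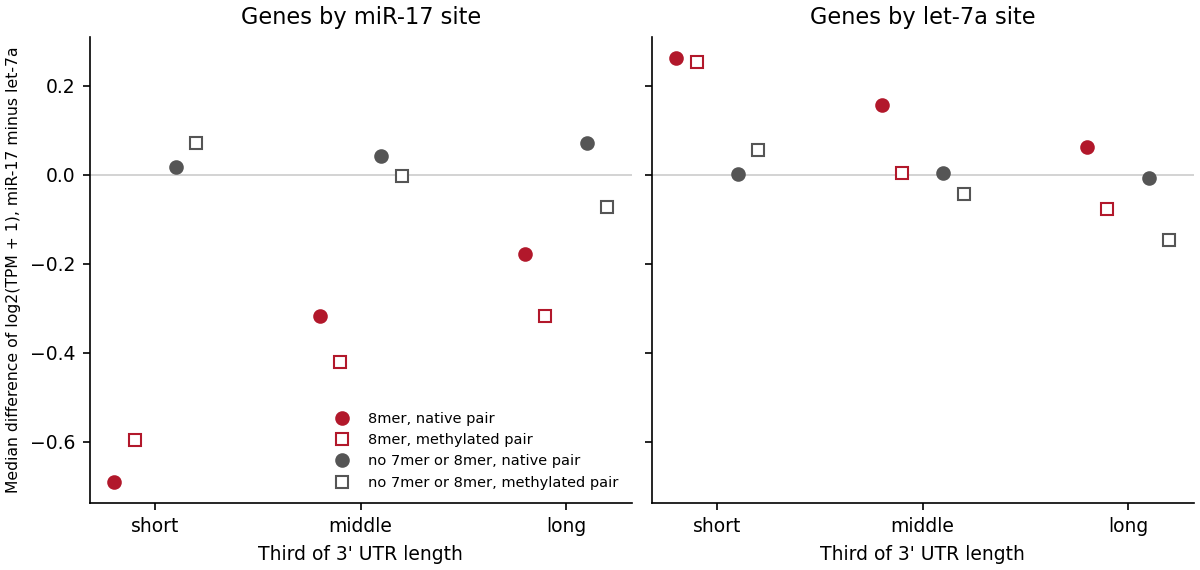
Median difference of log2(TPM + 1), miR-17 minus let-7a (y axis), by tertile of 3′ UTR length (x axis) for genes with an 8mer (red) and with no 7mer or 8mer (grey), miR-17 sites on the left and let-7a sites on the right. Filled circles are the native pair and open squares the methylated pair; the miR-17 8mer medians run between -0.69 and -0.18, and the let-7a 8mer medians between 0.26 and -0.08.

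Site content also differed between the genes called in each direction. Among the 86 searched genes whose ranges were apart by 2-fold or more and lower, 75.6% held a miR-17 7mer or 8mer, against 31.5% of all searched genes. Of the 809 searched genes called lower, 67.1% held one. Of the 555 called higher, 16.2% held a miR-17 site, and 22.3% held a let-7a site, against 17.9% of all. When all heptamers present in at least 200 3′ UTRs were ranked by their difference in a linear model with 3′ UTR length, GC content and expression, GCACTTT was the lowest of 14263 (-0.17) and CACTTTA the next (-0.15), both miR-17 seed matches. CTACCTC, the let-7a seed match, was the highest of the 14263 (0.07), and TACCTCA ranked 3 from the top (0.06). In the methylated pair alone these let-7a heptamers ranked 6 and 44 from the top, whereas GCACTTT and CACTTTA stayed the lowest in both pairs.

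Among the protein-coding genes named by size, CYBRD1, GALNT5, ENPP5 and DKK1 had the largest falls that limma called. CYBRD1, a ferric reductase of the cell surface, was at 6.8 and 7.0 TPM in the miR-17 libraries (miR17-native, then miR17-13A) and at 24.3 and 21.9 TPM in the let-7a libraries (let7a-native, then let7a-19A, the order used throughout). It fell by 1.61 on the log2 scale (SE 0.11, limma adjusted p 0.00154), and its 3′ UTR holds 4 miR-17 sites. EREG, which encodes the EGF receptor ligand epiregulin, was at 257.1 and 254.4 TPM with miR-17 and at 758.0 and 676.5 TPM with let-7a, a difference of -1.48 (SE 0.08, limma adjusted p 0.00151). Both forms of miR-17 lay close together for EREG, far below both let-7a values. LIMK1, the kinase that inactivates the actin-severing protein cofilin, was at 22.3 and 19.5 TPM with miR-17 and at 61.9 and 60.3 TPM with let-7a (difference -1.51, SE 0.09, limma adjusted p 0.00154). ENPP5, with 2 miR-17 8mers, was at 10.7 and 9.1 TPM with miR-17 and at 31.2 and 31.4 TPM with let-7a (difference -1.57, SE 0.11, limma adjusted p 0.00154). Non-overlapping ranges were a condition for naming genes by size, by 8mer or from a list. In these 4 genes the 2 forms of each microRNA lay close together.

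F3, which encodes tissue factor, the starter of coagulation, was at 16.0 and 17.5 TPM with miR-17 and at 46.2 and 45.0 TPM with let-7a (difference -1.39, limma adjusted p 0.00154). RNH1, the cytosolic ribonuclease inhibitor, was at 28.2 and 29.3 TPM with miR-17 and at 76.9 and 74.1 TPM with let-7a (difference -1.36). NCEH1, a hydrolase of cholesterol esters, was at 8.6 and 8.3 TPM with miR-17 and at 25.1 and 24.6 TPM with let-7a (difference -1.45). Each of these 3 holds at least 1 miR-17 site and fell by limma. LINC00116 (-1.51) and the 8mer genes CDC37L1 (-1.30), a co-chaperone of HSP90, and MAPRE3 (-1.27), a protein of microtubule ends, fell as well.

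Not every large fall came with a miR-17 site. DKK1, a secreted inhibitor of Wnt signalling, was at 41.7 and 43.4 TPM with miR-17 and at 155.3 and 98.4 TPM with let-7a, a difference of -1.52 (SE 0.19, limma adjusted p 0.00768), and its searched 3′ UTR holds 0 sites. GALNT5, which starts O-glycosylation, had 0 sites and was at 5.2 and 5.6 TPM with miR-17 and at 19 and 17.7 TPM with let-7a (difference -1.60, limma adjusted p 0.0017). Both fell by limma, and the 2 let-7a forms differed from each other for DKK1. FOXD1, a forkhead transcription factor with 0 sites, was at 0.9 and 9.6 TPM with miR-17 and at 20.7 and 17.1 TPM with let-7a. Its ranges did not overlap, but the miR-17 forms were far apart, and limma did not call it (adjusted p 0.102).

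The largest rise among the protein-coding genes named by size was that of SPARC, a secreted glycoprotein that binds collagen. It was at 44.7 and 38.7 TPM with miR-17 and at 5.5 and 4.3 TPM with let-7a, a difference of 2.86 (SE 0.14, limma adjusted p 0.00151), although its 3′ UTR holds the miR-17 7mer shown above. SPARC is also a fibroblast marker, and of the 15 such markers 5 passed the filter; DCN, PDGFRA, THY1 and FAP were listed at 0 in all 4 libraries, and COL1A1 was at 15 TPM in both libraries with miR-17 and at 16.3 and 14.1 TPM with let-7a. The summed fibroblast markers were 311.4 and 258.5 TPM with miR-17 and 209.2 and 220.5 TPM with let-7a. Most of the sum was COL6A1, at 142.7 and 108.5 TPM with miR-17 and 89.1 and 101.8 TPM with let-7a, and COL6A2. The ranges of COL6A2 overlapped, at 104.7 and 91.0 TPM against 92.0 and 94.9 TPM. VIM was lower with miR-17, at 3.0 and 3.7 TPM against 5.3 and 4.2 TPM, so the markers did not rise as a group. TNNC1, troponin C of slow and cardiac muscle, was at 120.7 and 115.9 TPM with miR-17 and at 39.9 and 40.7 TPM with let-7a (difference 1.53, SE 0.07, limma adjusted p 0.00151). For both genes the values of the 2 forms were close and the microRNAs far apart.

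BZW2, with 1 let-7a 7mer, was at 169.0 and 155.4 TPM with miR-17 and at 72.5 and 71.4 TPM with let-7a (difference 1.16, limma adjusted p 0.00154). NUPR1, a stress-induced nuclear protein, was at 85.0 and 100.3 TPM with miR-17 and at 48.0 and 32.8 TPM with let-7a (difference 1.20, limma adjusted p 0.0114). DDIT4L, an inhibitor of mTOR signalling, was at 131.1 and 120.9 TPM with miR-17 and at 55.5 and 61.5 TPM with let-7a (difference 1.09). These 3 rose by limma, as did the folate receptor FOLR1 (1.07), the tetraspanin TSPAN13 (1.06), the serine protease KLK10 (1.10), the cytokine TNFSF18 (1.10) and the actin-binding kelch protein ENC1 (1.06). Of the 12 protein-coding genes of largest rise, 3 (BZW2, CDKAL1 and KLK10) held a let-7a site in the searched 3′ UTR and 3 (SPARC, NUPR1 and KLK10) a miR-17 site. Of the 12 of largest fall, 9 held a miR-17 site and 1, SLC30A1, a let-7a site.

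**Figure D4:**
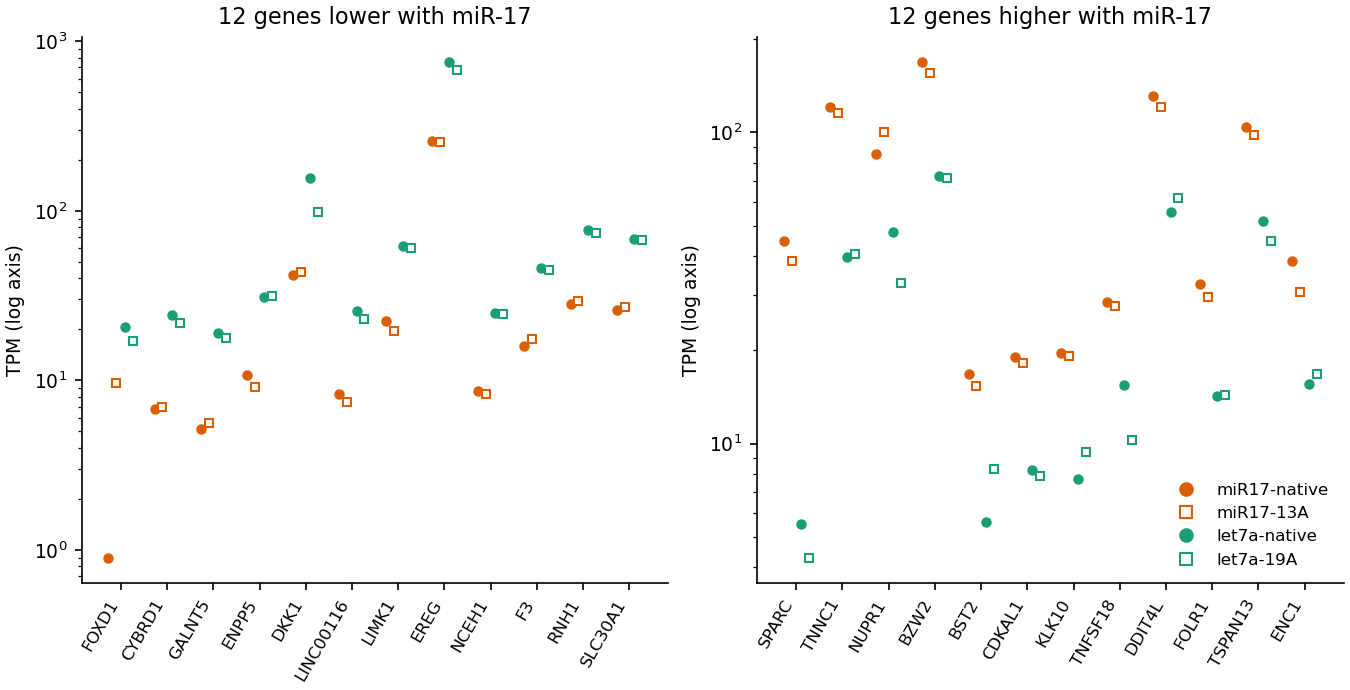
TPM (log y axis) in each library for the 12 protein-coding genes of largest fall (left) and largest rise (right) with non-overlapping ranges and a mean of at least 10 TPM, miR-17 libraries in orange and let-7a libraries in green, native forms filled and methylated forms open. In each gene both miR-17 points lie on the same side of both let-7a points; FOXD1 has its miR-17 points far apart, at 0.9 and 9.6 TPM, and SPARC has the largest difference.

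let-7a 8mer genes of largest rise had let-7a values close to each other. CDKAL1, a tRNA-modifying enzyme, was at 19 and 18.1 TPM with miR-17 and at 8.2 and 7.9 TPM with let-7a (difference 1.11, SE 0.10, limma adjusted p 0.00292). KLHDC8B, a kelch protein, was at 53.5 and 49.8 TPM with miR-17 and at 25 and 28.1 TPM with let-7a (difference 0.94, limma adjusted p 0.00339). ARG2, the mitochondrial arginase, was at 94.9 and 99.8 TPM with miR-17 and at 61.2 and 56.5 TPM with let-7a (difference 0.72, limma adjusted p 0.00445). PCTP (0.68) and SYT7 (0.67) rose too. Their sizes stayed below those of the miR-17 8mer genes of largest fall.

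Some genes went against their site. EIF4EBP2, a repressor of translation that binds eIF4E, holds a miR-17 8mer and was at 81.9 and 66.7 TPM with miR-17 and at 45.3 and 46.9 TPM with let-7a, a rise of 0.67 (limma adjusted p 0.0143). CALCOCO1, also with a miR-17 8mer, rose by 0.52, and AGTPBP1 had a difference of 0.50 that limma did not call (adjusted p 0.0719). CDKN1A, which encodes the cell cycle inhibitor p21, holds 2 miR-17 sites and a let-7a 8mer. It was at 187.6 and 190.7 TPM with miR-17 and at 483.4 and 442.2 TPM with let-7a, a difference of -1.28 (SE 0.07, limma adjusted p 0.00151). SLC30A1, a zinc exporter with 1 site of each microRNA, fell by 1.32, and the tyrosine kinase gene ABL2, with 7 miR-17 sites and 2 let-7a sites, fell by 0.89.

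Each of the 6 lists of known miR-17 targets had a median below 0, and that of autophagy and membrane traffic had the lowest. Of its 15 tested members 13 fell by limma and 0 rose, against 6.11% and 4.23% of all genes. At an unadjusted p under 0.05 also 0 rose. The median was -1.01, against -0.009 for all genes. FYCO1, an adaptor that moves autophagosomes along microtubules, was at 9.9 and 8.2 TPM with miR-17 and at 22.0 and 20.4 TPM with let-7a (difference -1.15). M6PR, a receptor that carries enzymes to lysosomes, was at 54.4 and 52.9 TPM with miR-17 and at 117.6 and 118.7 TPM with let-7a (difference -1.12). All 15 hold a miR-17 site in the searched 3′ UTR, and KIF23 is counted again below among mitosis genes. The target lists were drawn up with earlier results of these libraries known and are no independent evidence of direction.

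Among targets in the cytoskeleton and adhesion, limma called 9 of 13 lower and 1 higher, against 6.11% and 4.23% of all genes. The median was -0.73. Beside ENPP5 and LIMK1, the muscle-type cofilin gene CFL2 fell by 0.97, and LIMA1, an actin cross-linker, by 0.80. Among transcription and chromatin targets, limma called 11 of 17 lower and 0 higher, and the median was -0.63. The zinc finger gene ZNFX1 was at 20.3 and 19 TPM with miR-17 and at 45.8 and 46.4 TPM with let-7a (difference -1.19), and the repressor gene ZBTB7A was at 17.9 and 17.1 TPM with miR-17 and at 38.9 and 38.8 TPM with let-7a (difference -1.11). Among targets in apoptosis and survival signalling, limma called 4 of 13 lower and 0 higher, and the median was -0.35. The apoptosis kinase MAP3K5 was at 8.0 and 7.1 TPM with miR-17 and at 15 and 13.4 TPM with let-7a, a difference of -0.83 (SE 0.12, limma adjusted p 0.0119). The survival gene BCL2L2 (-0.50) fell as well. In the last 2 lists, and in that of the cell cycle, 0 members were higher at an unadjusted p under 0.05.

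Of 17 cell cycle targets of miR-17, limma called 6 lower and 0 higher, against 6.11% and 4.23% of all genes. The list median was -0.26. BTG3, an antiproliferative factor, was at 24.4 and 29.2 TPM with miR-17 and at 66.3 and 62.4 TPM with let-7a (difference -1.24, limma adjusted p 0.00217). RBL2, a relative of the retinoblastoma protein, was at 11.6 and 11.8 TPM with miR-17 and at 19.6 TPM in both let-7a libraries (difference -0.70), and cyclin G2 (CCNG2) also fell by 0.70. The TGF-β and BMP group had the median nearest 0 of the 6, at -0.15, with 1 of 11 called lower by limma and 0 called higher. ZFYVE9, an anchor for SMADs, fell by 0.80, whereas SMAD7 was at 11.3 and 8.8 TPM with miR-17 and at 5.4 and 7.6 TPM with let-7a (difference 0.57, limma adjusted p 0.109). At an unadjusted p under 0.05, 1 member of this group was higher and 4 were lower.

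Known let-7 targets had few calls, in both directions, beside 4.23% of all genes called higher by limma and 6.11% called lower. In the group of HMGA and IGF2BP genes, 5 of 6 tested members had both miR-17 values above both let-7a values and 1 had both below, against 27.1% and 29.8% of all genes; 1 rose by limma, 0 fell (also 0 at an unadjusted p under 0.05) and the median was 0.42. IGF2BP2, an RNA-binding protein of growth factor mRNAs, was at 125.9 and 119.4 TPM with miR-17 and at 91.9 and 98.5 TPM with let-7a, a rise of 0.36 (SE 0.07, limma adjusted p 0.0281). HMGA2, an architectural chromatin protein, was at 36.5 and 31.0 TPM with miR-17 and at 23.9 and 28.1 TPM with let-7a (difference 0.36, limma adjusted p 0.103), with 4 miR-17 sites in the longest annotated 3′ UTR and let-7a sites in another annotated 3′ UTR alone. IGF2BP3 was at 18.4 and 17.8 TPM with miR-17 and at 14.4 and 10.4 TPM with let-7a (difference 0.53, limma adjusted p 0.0775). Of these 3, IGF2BP2 alone was called, and its adjusted p was 0.0572 in the limma fit with the form as a further term. In the whole group limma called 3 higher and 0 lower with equal library medians. The counts were the same with a mean of at least 5 TPM, and 0 and 0 with the form as a further term.

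The list headed transcription factors also holds other proteins, such as LIMD2 and YOD1. Of its members 2 of 17 rose by limma, HOXA9 (0.50) and LIMD2 (0.71), and YOD1 fell by 0.37 (adjusted p 0.0771 in the limma fit with the form). The median was 0.16, with 0.30 in the native pair and -0.06 in the methylated pair. In the group of RAS, MYC and kinases 3 of 16 rose (1 with the form in the fit) and 1 fell, at a median of 0.04. TGFBR1, a TGF-β receptor with 2 let-7a sites, was at 36.1 and 32.3 TPM with miR-17 and at 22.3 and 25.3 TPM with let-7a (difference 0.51, limma adjusted p 0.0294, and 0.0531 with the form), and RRAS2 fell by 0.47. Of 13 cell cycle targets of let-7, 2 rose and 3 fell (1 and 2 with the form in the fit), at a median of 0.07. CDC34, a ubiquitin-conjugating enzyme with a let-7a 8mer, was at 151.1 and 142.5 TPM with miR-17 and at 96.7 and 108.9 TPM with let-7a (difference 0.51, limma adjusted p 0.0144), and cyclin D1 (CCND1), with 2 sites of each microRNA, fell by 0.47. Insulin and IGF signalling targets had a median of -0.12, with 1 of 10 falling (0 with the form in the fit) and 0 rising, also at an unadjusted p under 0.05. The group of RNA and membrane proteins had a median of 0.06, with 2 of 30 rising (0 with the form in the fit) and 1 falling. Beside these counts, limma called 4.23% of all genes higher and 6.11% lower, and in lists this short a single gene moves the share by much. With equal library medians the numbers called higher and lower in these groups, in the order given, were 2 and 0, 4 and 1, 3 and 2, 0 and 0, and 4 and 1.

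**Figure D5:**
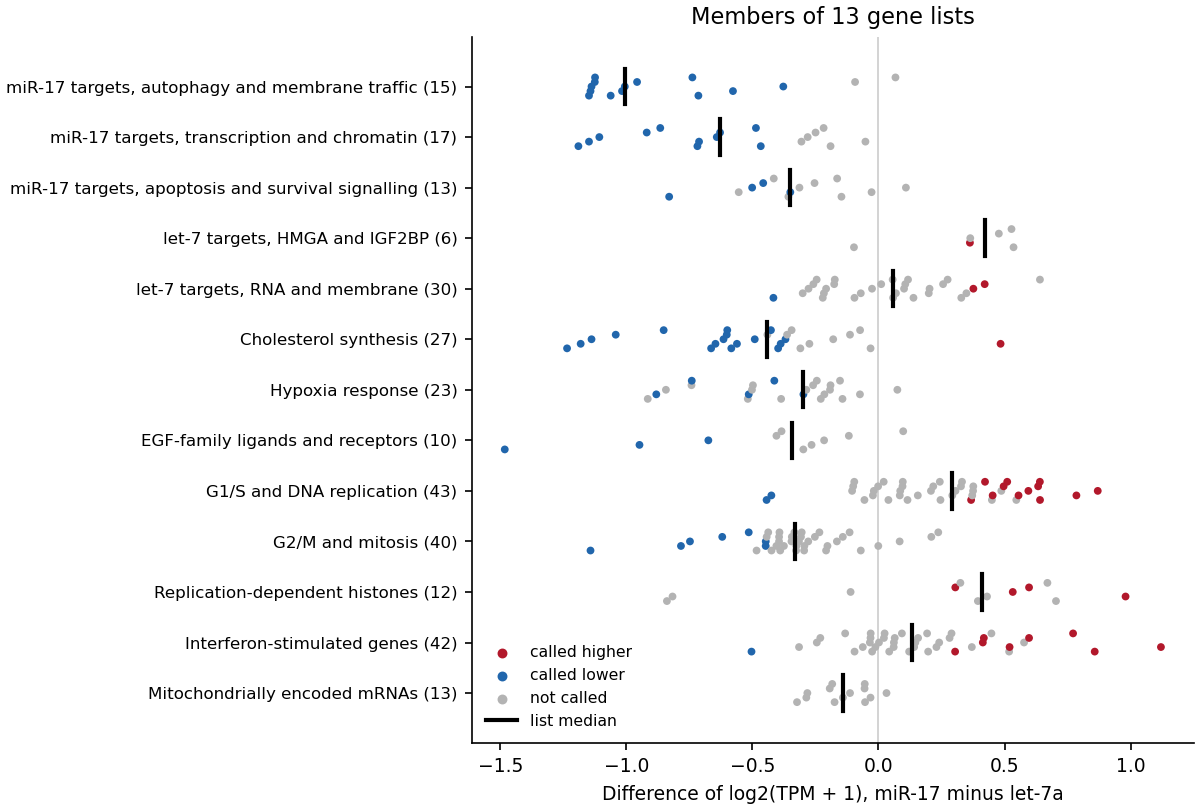
Difference of log2(TPM + 1), miR-17 minus let-7a (x axis), for each tested member of 13 gene lists (rows, with the number tested in brackets). Red points were called higher and blue points lower by limma, grey points were not called, and black bars mark the list medians, which run between -1.01 for miR-17 targets in autophagy and membrane traffic and 0.42 for let-7 targets of the HMGA and IGF2BP group.

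Genes of DNA replication had a median above 0 and genes of mitosis a median below 0, and most members of both lists were not called. Of 43 G1/S and DNA replication genes, 12 rose and 2 fell by limma, against 4.23% and 6.11% of all genes, at a median of 0.29, with 0.16 in the native pair and 0.41 in the methylated pair. GINS2, a part of the replicative helicase, was at 17 and 17.3 TPM with miR-17 and at 9.5 and 8.4 TPM with let-7a (difference 0.87, limma adjusted p 0.00774). Thymidine kinase (TK1) was at 258.7 and 272.6 TPM with miR-17 and at 161.3 and 146.5 TPM with let-7a (difference 0.78, limma adjusted p 0.00312). The helicase subunit MCM5 (0.64) and the polymerase subunit POLA1 (0.64) rose too, and RRM2, which holds an 8mer of each microRNA, fell by 0.42 (adjusted p 0.0665 in the limma fit with the form). In bulk RNA, fewer cells in a phase and less RNA per cell cannot be told apart.

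Of 40 G2/M and mitosis genes, 7 fell and 0 rose by limma, against 6.11% and 4.23% of all genes. At an unadjusted p under 0.05, 28 were lower and 1 higher. Where the filter was a mean of at least 5 TPM, 20 were called lower. The list median was -0.33, with -0.49 in the native pair and -0.18 in the methylated pair. KIF23, a kinesin of the dividing cell's midbody, holds a miR-17 8mer and was at 16.9 and 17.3 TPM with miR-17 and at 45.4 and 33.4 TPM with let-7a (difference -1.14, limma adjusted p 0.00768). ASPM, a spindle pole protein with 0 miR-17 sites, was at 10.6 and 10.5 TPM with miR-17 and at 21.2 and 16.8 TPM with let-7a (difference -0.78, limma adjusted p 0.0164). KIF14 (-0.75) and the kinetochore gene NUF2 (-0.62) fell as well. Of the 40, 9 held a miR-17 site. Among 12 replication-dependent histone genes 4 rose and 0 fell (1 at an unadjusted p under 0.05), at a median of 0.41. HIST1H2BK was at 189.7 and 196.2 TPM with miR-17 and at 101.0 and 93.8 TPM with let-7a (difference 0.98, limma adjusted p 0.0017); near-identical histone copies may share reads, so single members are uncertain.

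Cholesterol synthesis genes were lower with miR-17. Of 27 genes limma called 17 lower and 1 higher, TM7SF2, against 6.11% and 4.23% of all genes. The median was -0.44, and 3 of the 27 held a miR-17 site. MSMO1, a sterol demethylase, was at 99.8 and 102.5 TPM with miR-17 and at 228.9 and 232.3 TPM with let-7a (difference -1.18, SE 0.06, limma adjusted p 0.00151). Mevalonate kinase (MVK) was at 16.6 TPM in both miR-17 libraries and at 43.7 and 37.4 TPM with let-7a (difference -1.24, limma adjusted p 0.00217). MSMO1 and MVK hold a miR-17 site each. Of 11 fatty acid synthesis genes 3 fell by limma, FASN by 0.59, SCD by 0.51 and ELOVL6 by 0.38. None was called higher (1 at an unadjusted p under 0.05). The limma fit with the form called 1 of them, with adjusted p 0.0576 for SCD and 0.0511 for ELOVL6.

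Other metabolic and stress groups had medians nearer 0 than that of cholesterol synthesis. Their calls stand beside the 4.23% of all genes that limma called higher and the 6.11% it called lower. Of 23 hypoxia-response genes limma called 5 lower (3 with the library medians made equal) and 0 higher, also at an unadjusted p under 0.05. The list median was -0.30, with -0.17 in the native pair and -0.54 in the methylated pair. BHLHE40, a transcription factor of that response, was at 65.8 and 71.7 TPM with miR-17 and at 113.0 and 143.5 TPM with let-7a (difference -0.88, limma adjusted p 0.00885). NDRG1 was at 77.9 and 89.3 TPM with miR-17 and at 118.8 and 165.0 TPM with let-7a (difference -0.74, limma adjusted p 0.0314). For both genes let7a-19A exceeded let7a-native. Of 22 glycolysis genes 2 fell (4 with the form in the fit) and 0 rose, also at an unadjusted p under 0.05. Their median was -0.19, with -0.10 in the native pair and -0.38 in the methylated pair. PFKP, a phosphofructokinase with a miR-17 8mer, was at 52.1 and 56.8 TPM with miR-17 and at 110.3 and 126.4 TPM with let-7a (difference -1.10, limma adjusted p 0.00217). LDHA, lactate dehydrogenase, was at 391.6 and 456.5 TPM with miR-17 and at 530.0 and 748.6 TPM with let-7a, and limma did not call it (adjusted p 0.0723) but did so with the form in the fit (adjusted p 0.026). Of 36 ATF4-response genes 3 rose (10 where the filter was a mean of at least 5 TPM) and 2 fell (1 with the form in the fit), with a median of 0.06, and of 24 chaperone genes of the endoplasmic reticulum 0 were called by limma (1 higher and 5 lower at an unadjusted p under 0.05).

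Of 10 genes of the EGF family, 3 fell with miR-17 by limma and 0 rose, also at an unadjusted p under 0.05. Of all genes, limma called 6.11% lower and 4.23% higher. Beside EREG, the ligand amphiregulin (AREG) was at 237.1 and 257.5 TPM with miR-17 and at 516.4 and 441.6 TPM with let-7a (difference -0.95, limma adjusted p 0.00339), with 0 miR-17 sites. The receptor gene ERBB3, with 3 miR-17 sites, fell by 0.67. Of 36 immediate early genes 9 fell and 2 rose by limma, at a median of -0.23, but 5 fell and 7 rose with the library medians made equal. KLF2 was at 28.5 and 33.5 TPM with miR-17 and at 82.2 and 71.8 TPM with let-7a (difference -1.29), and the AP-1 gene FOSL1 was at 75.5 and 89.9 TPM with miR-17 and at 177.3 and 163.3 TPM with let-7a (difference -1.04). ETV4, an ETS factor, was at 172.8 and 158.3 TPM with miR-17 and at 86.8 and 88.8 TPM with let-7a, a rise of 0.91 (limma adjusted p 0.00205).

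Among genes of Wnt signalling and colon stem cells, 2 of 17 rose and 3 fell by limma. The calls of this list and those below stand beside the 4.23% of all genes called higher and the 6.11% called lower. AXIN2, a feedback inhibitor induced by Wnt, was at 51.0 and 42.6 TPM with miR-17 and at 24.7 and 30.2 TPM with let-7a (difference 0.75, limma adjusted p 0.0175), and NKD1 rose by 0.75, while DKK1, CD44 (-0.50) and CCND1 fell. Of 42 interferon-stimulated genes 8 rose and 1 fell, IRF9, at a median of 0.13. STAT2, which carries the interferon signal, was at 34.9 and 34.8 TPM with miR-17 and at 20.0 TPM in both let-7a libraries (difference 0.77, limma adjusted p 0.00437), and IFIT3 (0.86) and BST2 (1.12) rose too. Of 27 p53 targets 4 fell and 1 rose (0 with the form in the fit); GDF15, a secreted stress cytokine, was at 406.6 and 395.8 TPM with miR-17 and at 778.5 and 625.0 TPM with let-7a (difference -0.80), and the median of -0.10 became 0.019 without miR17-13A.

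Within the silencing machinery itself, AGO2, the Argonaute with slicing activity, was at 34.5 and 27.1 TPM with miR-17 and at 54.1 and 55.2 TPM with let-7a. It fell by 0.82 (SE 0.12, limma adjusted p 0.0112), and its 3′ UTR holds 4 miR-17 and 3 let-7a sites. The scaffold gene TNRC6A fell by 0.45 and TARBP2, which encodes a Dicer partner, rose by 0.42, but neither was called by limma with the form in the fit (adjusted p 0.0609 for TNRC6A and 0.0649 for TARBP2). The median of the 15 tested genes was -0.03 (0.02 with the library medians made equal). Of 26 deadenylation and decapping genes 2 fell, CNOT6L by 0.66 and DCP1A by 0.42, and 0 rose (2 at an unadjusted p under 0.05). Of 17 genes that write, erase or read N6-methyladenosine, RBM15 fell by 0.46 and 0 rose, also at an unadjusted p under 0.05. The counts of both lists lie near the shares of all genes, of which limma called 4.23% higher and 6.11% lower.

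Ribosomal protein and respiratory chain genes had medians slightly above 0. The 78 cytosolic ribosomal protein genes had a median of 0.08, and limma called 0 of them (2 higher and 1 lower at an unadjusted p under 0.05). The 65 nuclear respiratory chain genes had a median of 0.14, with 0.06 in the native pair and 0.22 in the methylated pair, and 59 of them lay above 0. In 44 the ranges were apart and higher with miR-17 and in 2 apart and lower, against 27.1% and 29.8% of all genes. limma called NDUFA8 alone, higher by 0.36 (18 higher and 0 lower at an unadjusted p under 0.05), but called 8 higher where the filter was a mean of at least 5 TPM. The 13 mitochondrially encoded mRNAs summed to 109047 and 93563 TPM with miR-17 and to 100018 and 116562 TPM with let-7a, so the sums overlapped, and limma called 0 (2 lower and 0 higher at an unadjusted p under 0.05). Of 5 noncoding genes of largest difference, chosen by the same conditions as the protein-coding ones, 4 were called. The antisense RNA RP11-316M1.12, whose reads may not be separable from those of the opposite strand, was at 5.0 and 3.9 TPM with miR-17 and at 12.1 and 21.4 TPM with let-7a (difference -1.66, limma adjusted p 0.0129). FAM3C2, a pseudogene that may share reads with FAM3C, was at 220.7 and 221.4 TPM with miR-17 and at 481.5 and 438.3 TPM with let-7a (difference -1.05, limma adjusted p 0.00154).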

How the data were processed

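RNA was measured in 5 libraries; per the labels, total RNA was depleted of ribosomal RNA and made into stranded libraries. The authors deposited gene-level TPM values in 1 table with 1 decimal. The build was hg19, per the submitters' processing notes, and no source used here names the aligner or counting tool. All columns sum to the same total, so depth is unknown and no counting interval is given.

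Differences were computed on log2(TPM + 1), a pseudocount of 1 that understates changes of low genes, where the mean over the 5 libraries reached 1 TPM. limma 3.58.1 (R 4.3.3) with a mean-variance trend was fitted to the 4 libraries with the microRNA as its only term, and p-values were adjusted by Benjamini-Hochberg over 14177 genes. Seed sites were searched in GENCODE 29 transcripts (GRCh38, another build, so coordinates are of that build), which hold 90.6% of the deposited identifiers. Files were read with pandas.

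The members and lists were chosen with earlier results of these data known. Genes were named by rule: the 12 protein-coding genes of largest difference in each direction (mean of at least 10 TPM, above 0 in all 4 libraries, ranges apart), up to 4 members per list (at least 5 TPM, ranges apart), the 6 8mer genes furthest in the direction away from their microRNA and 3 the other way, 5 noncoding genes, DICER1 and the genes at the 2-fold limit. Fibroblast markers, TM7SF2, IRF9, SYS1-DBNDD2 and CCND1 among Wnt genes were named after their values were seen. Some genes that the rule picks are not reported here. Alternatives were other pseudocounts, other filters, other scalings, the form of the microRNA as a term, each form alone and each library left out.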

Additional observations from a re-analysis of the deposited data

Results flagged for a closer look

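In 2 lists the median difference had opposite signs in the native and the methylated pair, each at least 0.1 from 0. The let-7 targets among RNA and membrane proteins were at 0.14 in the native pair and at -0.13 in the methylated pair. The mitochondrially encoded mRNAs were at 0.14 in the native pair and at -0.32 in the methylated pair. Each pair holds 1 library a side, so the difference between the pairs was not tested.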

How the results depend on the processing

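The miR-17 site classes kept their order in both pairs. The let-7a 8mer and both 7mer classes kept theirs as well. They were at 0.10, 0.052 and 0.045 in the native pair and at -0.045, -0.058 and -0.076 in the methylated pair. Genes with no let-7a site were at 0.0 and -0.023, so the let-7a classes lay above them in the native pair and below them in the methylated pair. The median of miR-17 8mer genes minus that of genes without a miR-17 7mer or 8mer was -0.31, and between -0.35 and -0.28 with 1 library left out; it was -0.22 with a pseudocount of 5, -0.70 in the shortest and -0.40 in the middle tertile of 3′ UTR length. The same value for let-7a 8mer genes was 0.042, between 0.017 and 0.075 with 1 library left out, 0.10 in the native forms alone, -0.015 in the methylated forms alone and 0.21 in the shortest tertile. For any let-7a site it was 0.016, with -0.006 without miR17-native, -0.004 without let7a-native, at most 0.041 with another library left out, 0.06 in the native forms alone, -0.031 in the methylated forms alone and 0.14 in the shortest tertile. Counts were less stable. The number of genes with ranges apart can only stay or grow when 1 library is left out, because fewer values must be apart. Genes with ranges apart numbered 4616 to 6222 higher and 4876 to 6687 lower with 1 library left out. Genes apart by at least 2-fold (85 higher and 135 lower) numbered 168 and 226 with a pseudocount of 0.1, 14 and 47 with a pseudocount of 5, 38 and 89 with a mean of at least 5 TPM, 180 and 203 at that size in the native forms alone, 172 and 252 in the methylated forms alone, and 111 to 148 and 152 to 192 with 1 library left out. limma called 965 higher and 1302 lower with a mean of at least 5 TPM, 1013 higher with equal library medians and 407 and 636 with the form as a term. It called 0 without a filter, where 2226 were higher and 2255 lower at an unadjusted p under 0.05, and 0 and 0 with any 1 library left out, where 1 side has no spread of its own and the lone library is assumed to vary like the other side. The cause of the other moves was not tested. The p53 list alone changed the sign of a median past the spread between the pairs, with -0.10 as reported, 0.019 without miR17-13A and -0.14 at the lowest, without miR17-native. The fit with the form as a term is the paired analysis of the native and the methylated libraries; the forms come from the labels, and nothing there says that libraries of a form were made together. With 1 library per form and unknown depth, small differences cannot be judged.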

Other observations

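Further lists are given beside the 4.23% of all genes that limma called higher and the 6.11% it called lower. Of 22 TGF-β response genes 3 rose and 2 fell, and ID2, an inhibitor of basic helix-loop-helix factors, was at 258.6 and 257.3 TPM with miR-17 and at 166.7 and 186.0 TPM with let-7a, a rise of 0.55 (adjusted p 0.0093). Of 25 epithelial adhesion and keratin genes 4 rose (1 with the form as a further term) and 1 fell, ELF3 by 0.57; the keratin KRT23 was at 365.9 and 368.0 TPM with miR-17 and at 265.1 and 201.7 TPM with let-7a, a difference of 0.66. Of 21 heat shock genes 3 fell, but 1 with equal library medians or with the form as a term, and 0 rose (1 at an unadjusted p under 0.05); HSPA8, the constitutive HSP70, holds a miR-17 8mer and was at 601.9 and 660.9 TPM with miR-17 and at 938.7 and 952.9 TPM with let-7a, a difference of -0.58. Of 38 mitochondrial ribosomal protein genes 1 rose and 1 fell, and MRPL24, with a miR-17 8mer, was at 50.5 and 51.9 TPM with miR-17 and at 95.7 and 80.5 TPM with let-7a. Of 12 NF-kB genes 2 fell by limma, NFKB1 by 0.43 among them, but 0 with the form as a term, and 0 rose (1 at an unadjusted p under 0.05). Of 7 microRNA host genes MCM7, whose intron holds a miR-17 family cluster, rose by 0.37 (limma adjusted p 0.0562 with the form as a term), and 0 fell, also at an unadjusted p under 0.05.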
